A study of Mus musculus with 1 sample.

Results

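The Ly6 family surface proteins were examined in mouse gastric organoids, cultures of stomach epithelium kept as 3-dimensional spheres. The genes described are Ly6a, Ly6c1, Ly6d, Ly6e, Ly6m and Psca, 6 of the 32285 genes in the deposited matrix, picked by name from its gene list with earlier results on these same cells in view. Their levels are therefore given as a description. Barcodes were kept if 500 or more genes were detected and mitochondrially encoded genes made up no more than 20% of unique molecular identifiers (UMIs), which left 1892 of 1991 barcodes. The 1 library is labelled wild type with treatment none, and its cultures were collected on day 7 and dissociated for 30 min at 37 °C in trypsin-EDTA (0.05%). How many animals or organoid lines went into it is not given in the labels. The cells carried 2 multiplexing tags, which may mark 2 samples, and treating them as 1 sample is an assumption. With 1 library there was no replicate, so no difference was tested, and every interval covers counting error only, at 95%.

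Ly6 proteins are small, rich in cysteines that pair into disulfide bonds, and held to the outer cell membrane by a lipid (GPI) anchor. Many of their genes lie side by side in the genome, and several respond to interferon. Ly6a encodes Sca-1, a marker of mouse blood stem cells that also marks fetal-like and regenerating gut epithelium. Ly6e encodes a protein that interferon induces and that alters virus entry. Ly6d is known from early B cells and stratified epithelium, Ly6c1 from monocytes and endothelium, and Psca, the prostate stem cell antigen, from the surface epithelium of the stomach and bladder.

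The members share a cysteine pattern near the end of the folded domain, shown here because it is what the otherwise divergent proteins have in common. Each line gives 48 coding bases, 5′ to 3′, from GENCODE M21 transcripts (GRCm38), with the cysteine codons in capitals.
Ly6a: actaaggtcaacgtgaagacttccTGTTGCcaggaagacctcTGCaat
Ly6c1: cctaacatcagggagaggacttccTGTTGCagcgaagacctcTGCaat
Ly6d: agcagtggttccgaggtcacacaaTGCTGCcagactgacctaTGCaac
Ly6e: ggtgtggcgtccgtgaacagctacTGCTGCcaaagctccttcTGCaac
Psca: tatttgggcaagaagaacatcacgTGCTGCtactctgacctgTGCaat
Ly6m: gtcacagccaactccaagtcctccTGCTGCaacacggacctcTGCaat
All 6 hold 2 adjoining cysteine codons and another after 4 further codons, and their whole coding sequences hold 10 to 12 cysteine codons in 333 to 408 bases. Ly6a and Ly6c1 were the closest pair, with 83.7% identity over 393 aligned coding bases. The other 14 pairs had 59.1% to 67.7%.

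All 6 genes are protein-coding and lie on GRCm38 chromosome 15, in the order Psca, Ly6d, Ly6m, Ly6e, Ly6a, Ly6c1. Psca (ENSMUSG00000022598) spans 74714839 to 74717069 on the plus strand, and Ly6e (ENSMUSG00000022587) spans 74955051 to 74959905 on the plus strand. The other 4 are on the minus strand. Ly6d (ENSMUSG00000034634) spans 74762056 to 74763620, Ly6a (ENSMUSG00000075602) 74994877 to 74998031, and Ly6c1 (ENSMUSG00000079018) 75044018 to 75048830. Ly6m (ENSMUSG00000063522) spans 74876987 to 74897021, and M21 lists it under the name 2010109I03Rik. Counts cover whole genes and do not resolve exons.

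Depth ran from 890 to 47183 gene UMIs per kept cell, with a median of 8512.5. The epithelial label held, with Epcam in 96.6% and Krt8 in 97.9% of cells. Of 11 markers of blood, vessel, stromal and glial cells, 4 were without a UMI (a count of 0 allows a UMI in at most 0.159% of cells, and sets no limit on cells that express the gene below detection), and 6 had a UMI in at most 0.264%. The remaining one, Lyz2, had a UMI in 0.476%. Clusters were made from genes other than the Ly6 family, and 1 of them stood apart. It is cluster 6, with 62 cells, and 51.6% of these had a UMI of a Y-linked gene (38.6% to 64.5%), against 0.984% of the other 1830 cells. The labels do not say whether these cells come from the same animal or culture as the rest, and this was not settled, so they may not belong to the wild type sample. Values without it are given beside the results it touches.

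Ly6a, Ly6d, Ly6e and Ly6c1 were found in nearly every cell, whereas Psca and Ly6m were found in minorities. Levels are given as CPM, a gene's UMIs per 1000000 gene UMIs summed over cells. UMIs count transcripts by their 3′ ends, so they were not divided by gene length. Ly6a was at 3136 CPM (3112 to 3161) and had a UMI in 98.7% of cells. Ly6d was at 3103 CPM (3079 to 3128), in 98.9% of cells. These were the 72nd and 73rd genes of the library by UMIs. Ly6e was at 1925 CPM (1905 to 1944), in 99.7% of cells. Ly6c1 was at 1239 CPM (1224 to 1255), in 94.98% of cells. In this order the intervals of Ly6a and Ly6d overlapped and no others did. Without cluster 6 these 4 levels were 3234, 3217, 1961 and 1288 CPM.

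Psca was at 100.9 CPM (96.5 to 105), with UMIs in 557 cells, or 29.4% (27.4% to 31.6%). Ly6m was at 17.5 CPM (15.7 to 19.4) and had a UMI in 126 cells, or 6.66% (5.58% to 7.88%). Both were carried by few cells. The 19 cells with the most UMIs held 34.3% of Psca UMIs and 50.9% of Ly6m UMIs, against at most 5.77% for the same number of cells in each of the other 4 genes. Without those cells Psca was at 67.7 CPM and Ly6m at 8.70 CPM. Without cluster 6 they were at 96.6 and 18.3 CPM. After each cell was thinned to 3000 UMIs, which kept 1835 cells and left out 57, Psca had a UMI in 14.8% of cells (13.2% to 16.5%) and Ly6m in 2.51% (1.84% to 3.33%). No cell type of the culture is known to lack these genes, so the part of free RNA in these shares was not measured.

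From cell to cell, Ly6e spanned the narrowest range relative to its median and Ly6c1 the widest of the 4 common genes. Scaled to 10000 UMIs per cell, Ly6e ran from 6.98 at the 5th percentile of cells to a median of 17.7 and 33.3 at the 95th percentile. Ly6a ran from 5.46 over 27.5 to 70.2, and Ly6d from 7.05 over 28.6 to 72.5. Ly6c1 ran from 0.231 over 10.2 to 32.8. The highest single cell had 298 for Ly6d, 177 for Ly6a, 101.1 for Ly6c1, 90.1 for Ly6e, 93.7 for Psca and 64.1 for Ly6m. The lowest value was 0 for each gene.

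**Figure D1:**
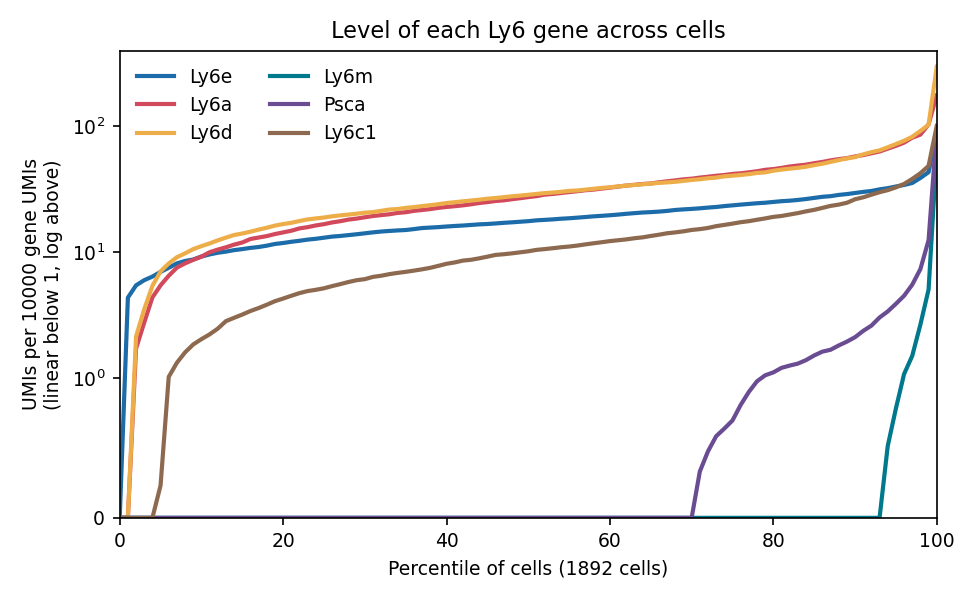
Level of each gene, as UMIs per 10000 gene UMIs (linear below 1, logarithmic above), against the percentile of the 1892 cells. The curves of Ly6a, Ly6d, Ly6e and Ly6c1 leave 0 within the lowest percentiles, that of Psca rises from 0 near the 70th and that of Ly6m near the 93rd percentile.

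UMIs of several members were mostly counted under the same barcode. No cell type known to lack Ly6a, Ly6d or Ly6e was present to give a background share, so these counts include an unmeasured part from free RNA. At 3000 UMIs per cell, 1327 cells (72.3%) had UMIs of 4 members, 256 (14.0%) of 5 and 13 (0.708%) of all 6. Another 205 cells had 3, 20 had 2, 13 had 1 and 1 had none. At this depth 1595 of the 1606 cells with Ly6c1, or 99.3% (98.8% to 99.7%), also had Ly6a, against 89.1% (84.3% to 92.8%) of cells without Ly6c1. In the other direction, 88.7% of cells with Ly6a had Ly6c1 (87.1% to 90.1%), against 11 of 36 cells without Ly6a, or 30.6% (16.3% to 48.1%). Ly6d was found in 98.4% of cells with Ly6a and in 61.1% (43.5% to 76.9%) of those without it. Cluster 6, with 60 cells at this depth, held 17 of the 36 cells without Ly6a and 21 of the 42 without Ly6d. Without it, Ly6d was found in 17 of the 19 cells that lacked Ly6a, or 89.5% (66.9% to 98.7%), against 98.9% of cells with Ly6a (98.3% to 99.3%). Ly6c1 was found in 10 of these 19 cells, or 52.6% (28.9% to 75.6%), against 89.6% (88.1% to 91.0%). Outside cluster 6 the lower share in cells without Ly6a thus stayed beyond counting error for Ly6c1, and for Ly6d the intervals overlapped. In the same cells Ly6a was found in 99.4% of those with Ly6c1 (98.8% to 99.7%) and in 95.3% of those without Ly6c1 (91.3% to 97.8%).

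Nearly all cells with Psca or Ly6m also had the common members, as did nearly all cells without them. At 3000 UMIs, 45 of the 46 cells with Ly6m had Ly6a and all 46 had Ly6d. Of the 271 cells with Psca, 264 had Ly6a, 267 had Ly6d and 247 had Ly6c1. In the other direction, Psca was found in 14.7% of cells with Ly6a (13.1% to 16.4%) and in 7 of the 36 without it, or 19.4% (8.19% to 36.0%). Without cluster 6 it was found in 14.2% (12.6% to 15.9%) and in 6 of 19, or 31.6% (12.6% to 56.6%). The intervals overlapped in both cases. Psca and Ly6m were together in 16 cells. Psca was found in 34.8% of cells with Ly6m (21.4% to 50.2%) and in 14.3% of cells without it (12.7% to 16.0%).

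Since presence says little for genes found almost everywhere, levels were compared next. Cells were sorted by each gene's share of UMIs within 10 bins of depth, and the upper 25% of cells (the upper group) was set against the lower 25% (the lower group). For Psca and Ly6m the lower group was every cell at 0, and for Ly6m the upper group was the 126 cells with a UMI. A pair was called shared where each gene was at least 1.5-fold higher in the upper cells of the other, with an interval above 1, and opposed where each was at least 1.5-fold lower. Of 15 pairs, 5 were shared, 0 were opposed and 10 were neither. The shared pairs were Ly6a with Ly6c1, Ly6d and Ly6e, Ly6d with Ly6c1, and Ly6m with Psca.

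For Ly6a, 3 of the 5 other members were shared, against a background of 0.485% of 8652 genes with at least 100 UMIs. For Ly6c1 it was 2 of 5 (background 0.416%), for Ly6d 2 of 5 (0.0462%) and for Ly6e 1 of 5 (0.0693%). For Psca it was 1 of 5 (1.60%) and for Ly6m 1 of 5 (2.20%). The background of opposed genes was 0.0925% for Ly6a, 0.289% for Ly6c1, 0.324% for Ly6d, 0.0347% for Ly6e, 1.05% for Psca and 3.78% for Ly6m, and no member was among them. These backgrounds were not matched for level. A sparse gene has every cell at 0 in its lower group, so it may pass 1.5-fold both ways less often. By Ly6a, 672 genes were at least 1.5-fold higher and 42 were shared. Whether members exceed genes as abundant as themselves was not tested.

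Ly6a and Ly6c1 were the closest pair. Ly6c1 was at 2244 CPM in the upper group of Ly6a and 512 CPM in the lower, a ratio of 4.38 (4.20 to 4.58). Ly6a was at 5150 CPM in the upper group of Ly6c1 and 1549 CPM in the lower, a ratio of 3.32 (3.24 to 3.41). Of the 472 cells in the upper group of Ly6a, 307 were also in that of Ly6c1, or 65.0% (60.6% to 69.3%), against 24.9% of all cells. Spearman's rho over the 1892 cells was 0.72, and each gene had the other as its most similar gene among 6489. Within the 6 clusters rho ran from 0.62 to 0.75. Without cluster 6 the ratios were 3.84 and 3.01, and rho was 0.71. These correlations are descriptions, as all cells come from 1 library and differ in depth. After correction for depth rho was 0.72, and at 3000 UMIs it was 0.56.

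The counts of this pair could be mixed if reads matched both genes. Of the 30-base words in Ly6a transcripts, 22.2% occur in Ly6c1 transcripts, and the longest run the transcripts share is 118 bases. In the last 400 bases, which a 3′ library samples most, 7 of 371 words of Ly6a occur in Ly6c1. Ly6c1 is closer to Ly6c2, with 97.7% coding identity and 170 of 371 words of its last 400 bases shared. Ly6c2 had 8 UMIs in the library. How reads that fit both genes were treated is not given in the sources used here, so the Ly6c1 counts may leave out some reads.

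Ly6d and Ly6e joined Ly6a at a lower rate. Ly6d was at 3853 CPM in the upper and 2091 CPM in the lower group of Ly6a, a ratio of 1.84 (1.80 to 1.89), and Ly6a differed 2.06-fold (2.01 to 2.11) between the groups of Ly6d. Their rho was 0.45, and within clusters it ran from 0.16 to 0.58. Ly6e was at 2425 and 1426 CPM in the groups of Ly6a, a ratio of 1.70 (1.65 to 1.75), and Ly6a differed 2.18-fold (2.13 to 2.24) between the groups of Ly6e. Their rho was also 0.45, and 0.23 to 0.51 within clusters. Without cluster 6 the ratios were 1.68 and 1.80 for Ly6d and 1.62 and 1.94 for Ly6e. Ly6a was the most similar gene of Ly6d and of Ly6e alike. Ly6c1 was second for Ly6d, and 7th for Ly6e. Without cluster 6 the 4 genes most like Ly6d were Ly6a, Clu, Wfdc2 and Aqp5. Ly6c1 was then not among them, with a rho of 0.31.

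Some calls lay close to the 1.5-fold threshold. Ly6d with Ly6c1 had ratios of 1.69 (1.65 to 1.73) and 2.10 (2.02 to 2.18), and without cluster 6 the first became 1.49 (1.46 to 1.53), which ended the call. Just outside were Ly6e with Ly6c1, at 1.47 (1.43 to 1.52) and 1.99 (1.92 to 2.07), and Psca with Ly6c1, at 1.49 (1.44 to 1.53) and 3.26 (2.87 to 3.72). Without cluster 6, Psca with Ly6c1 passed, at 1.51 (1.46 to 1.55) and 5.04 (4.32 to 5.90). Ly6d with Ly6e was at 1.38 (1.34 to 1.42) and 1.57 (1.53 to 1.61), with a rho of 0.25.

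**Figure D2:**
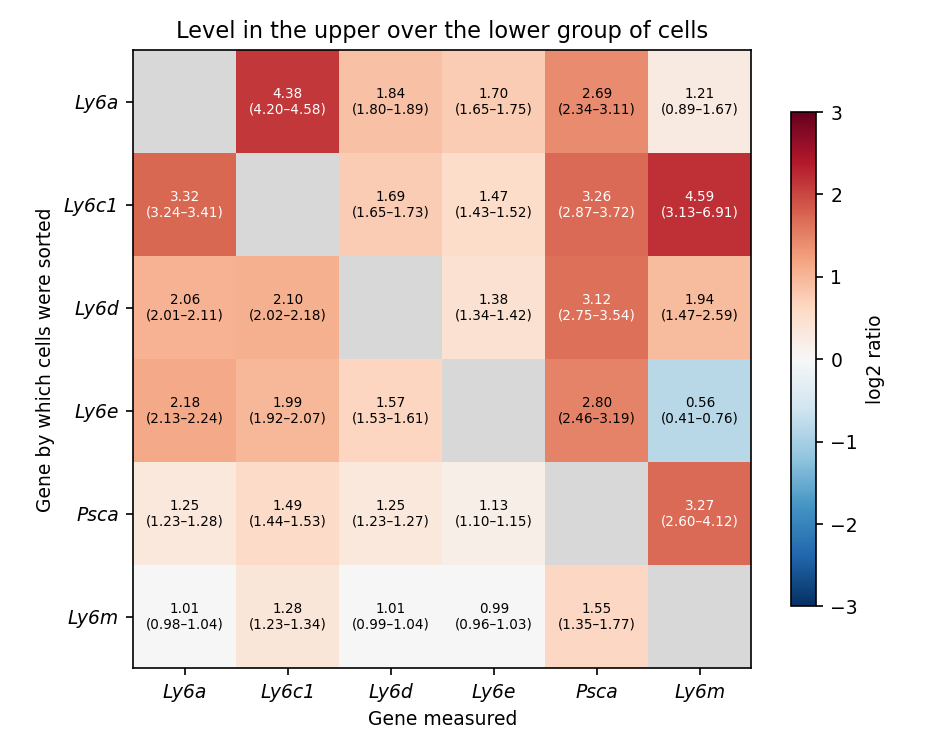
Ratio of CPM between the upper and lower group of cells, with its 95% counting interval, for each gene measured (columns) and each gene by which cells were sorted (rows). The block of Ly6a, Ly6c1, Ly6d and Ly6e is above 1 throughout, from 1.38 to 4.38, and the only ratio with an interval below 1 is Ly6m by Ly6e, at 0.56.

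Ratios of Psca with the common members were larger in 1 direction than in the other, but the 2 directions set unlike groups side by side. Sorted by Psca, 422 cells were set against all 1335 cells at 0, with median depths of 9220.5 and 7695 UMIs. Sorted by Ly6a, 472 cells were set against 472. The part of this in the difference was not tested. Psca was 2.69-fold higher in the upper group of Ly6a (2.34 to 3.11), 3.12-fold in that of Ly6d (2.75 to 3.54) and 2.80-fold in that of Ly6e (2.46 to 3.19). These ratios depended on the cells used. Psca by Ly6a was 1.58 (1.32 to 1.91) in cells tagged CMO301 and 4.16 (3.32 to 5.25) in cells tagged CMO302. Psca by Ly6d was 4.72 (4.06 to 5.50) without cluster 6, and Psca by Ly6e 1.81 (1.54 to 2.14) in cells without Mki67 or Top2a. Sorted by Psca itself, Ly6a differed 1.253-fold (1.23 to 1.28), Ly6d 1.2495-fold (1.23 to 1.27) and Ly6e 1.13-fold (1.10 to 1.15). The Spearman correlation of Psca was 0.10 with Ly6e, 0.16 with Ly6d, 0.18 with Ly6a and 0.22 with Ly6c1, all weak values in sparse counts. Ly6c1 was its 4th most similar gene.

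Ly6m was shared with Psca alone. Psca was at 150 CPM in cells with a Ly6m UMI and 96.6 CPM in the other cells, a ratio of 1.55 (1.35 to 1.77). Ly6m was at 36.0 CPM in the upper Psca cells and 11.0 CPM in cells without Psca, a ratio of 3.27 (2.60 to 4.12). The ratios were 1.64 and 3.37 without cluster 6. In cells with the tag CMO302 the first ratio was 1.48 (1.19 to 1.81), below the threshold. Cells with Ly6m were deeper, with a median of 11970 UMIs against 8267.5. The Spearman correlation of the pair was 0.15, or 0.13 after correction for depth and 0.09 at 3000 UMIs, all weak values in sparse counts. Within clusters 1 to 5 it ran from 0.03 in cluster 4 to 0.18 in cluster 3, where rho of Ly6m with Ly6c1 was 0.21. In cluster 6 rho of Ly6m with Psca was 0.01, but Ly6m had only 2 UMIs there, so this value says little.

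The nearest approach to exclusion was Ly6m with Ly6e. Ly6m was at 13.5 CPM in the upper and 24.0 CPM in the lower group of Ly6e, a ratio of 0.56 (0.41 to 0.76). Sorted by Ly6m, Ly6e was at 1909 and 1926 CPM, a ratio of 0.99 (0.96 to 1.03), so the call was neither. The shares of cells with a Ly6m UMI were 6.14% and 6.99% in the 2 groups of Ly6e. Without the 1% of cells with the most UMIs of any member the ratio was 0.82 (0.50 to 1.34). It was 0.47 (0.35 to 0.64) without cluster 6, 0.28 (0.17 to 0.43) in cells tagged CMO302 and 0.76 (0.46 to 1.24) in cells tagged CMO301. Ly6m with Ly6a had ratios of 1.01 (0.98 to 1.04) by Ly6m and 1.21 (0.89 to 1.67) by Ly6a, and the latter was 0.93 without cluster 6 and 0.78 (0.56 to 1.09) in cells without Mki67 or Top2a. With Ly6d they were 1.01 (0.99 to 1.04) by Ly6m and 1.94 (1.47 to 2.59) by Ly6d, and the latter was 1.22 (0.80 to 1.87) without the 1% of cells. With Ly6c1 they were 1.28 (1.23 to 1.34) by Ly6m and 4.59 (3.13 to 6.91) by Ly6c1. The latter was 7.16 (3.54 to 16.4) in cells tagged CMO301 and 2.56 (2.02 to 3.26) with 50% of cells in each group.

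The order of the pairs did not follow their distance on the chromosome. Ly6a and Ly6c1 start 50.8 kb apart and Ly6e and Ly6a 43.0 kb. Ly6d and Psca start 48.8 kb apart with a rho of 0.16, and Ly6e and Ly6m 58.0 kb apart with a rho of -0.01. Ly6a and Ly6d, with a rho of 0.45, start 234 kb apart, and Ly6d and Ly6c1, at 0.36, start 285 kb apart.

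**Figure D3:**
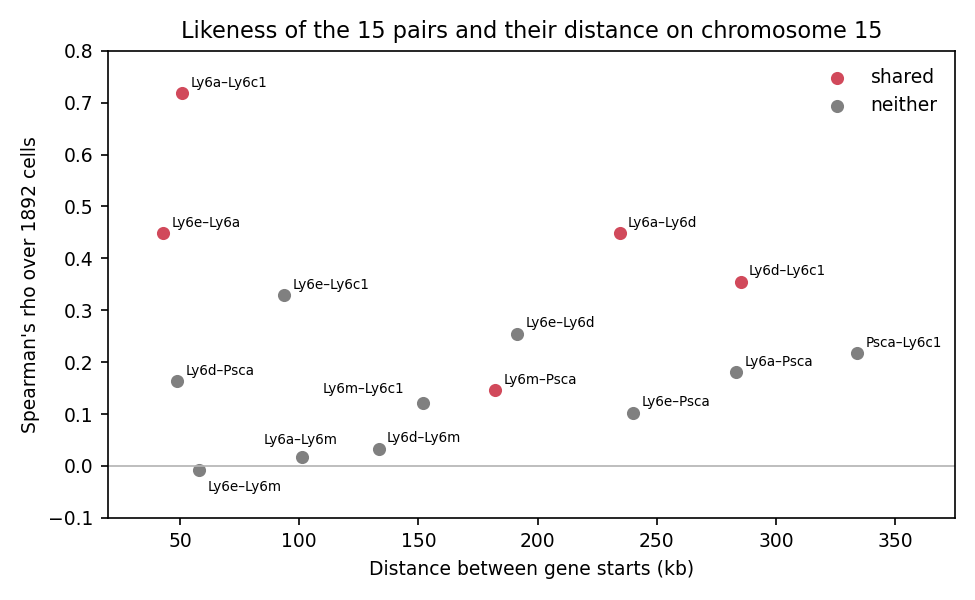
Spearman's rho over 1892 cells for each of the 15 pairs against the distance between the starts of the 2 genes in kb, with the 5 shared pairs in red. Pairs at most 58.0 kb apart run from -0.01 to 0.72, and pairs at least 234 kb apart from 0.10 to 0.45.

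Genes outside the family that were most like the common members overlapped between them. Aqp5, a water channel, had a rho of 0.48 with Ly6a, 0.42 with Ly6e and 0.35 with Ly6d, and was at 1726 CPM in the upper and 542 CPM in the lower group of Ly6a. Rhox5, a homeobox gene, had a rho of 0.54 with Ly6a and 0.40 with Ly6c1. S100a11, a calcium-binding protein, had a rho of 0.47 with Ly6a and 0.39 with Ly6c1. S100a6, of the same family, had 0.39 with Ly6c1. Ly6e was also like the actin-binding gene Tmsb4x (0.38) and the actin gene Actb (0.37), and Ly6d like Wfdc2 (0.32), a secreted protease inhibitor homolog. Without cluster 6, Aqp5 was still among the 4 most similar genes of Ly6a, Ly6d and Ly6e, and Rhox5 was not among those of Ly6c1.

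The genes most like Psca were S100a6 (0.30), which was also among those of Ly6c1, the keratin Krt7 (0.25), Phgr1 (0.23) and Ly6c1 itself. Ly6m was most like Ndrg1 (0.20), which hypoxia induces, S100a14 (0.19), the initiation factor Eif1 (0.17) and Ero1l (0.17), an oxidase of the endoplasmic reticulum. Ndrg1 was at 126 CPM in cells with Ly6m and 48.4 CPM in the others. The genes least like Ly6m were Tmem176a (-0.20) and Tmem176b (-0.20), 2 membrane proteins, with Tmem176a at 736 and 1882 CPM.

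The genes least like Ly6d belonged to cell division. Mki67 had a rho of -0.20 and was at 7.65 CPM in the upper and 60.5 CPM in the lower group of Ly6d, a ratio of 0.13 (0.09 to 0.18). Tpx2, a spindle protein, had a rho of -0.22 and a ratio of 0.11 (0.07 to 0.16). Without cluster 6 these ratios were 0.17 and 0.13, and the genes least like Ly6d were mt-Nd5 and Rps15. Cells with Mki67 or Top2a made up 17.2% of the upper and 37.9% of the lower group of Ly6d. For Ly6e the order was the other way, 33.7% and 26.1%. For Ly6a, Psca and Ly6c1 the least similar genes were mitochondrially encoded, led by mt-Co1 for Ly6a (-0.28), and for Ly6e the ribosomal genes Fau (-0.33) and Rps27 (-0.33). Eif1, a translation initiation factor, replaced the latter without cluster 6. The median ribosomal share was 30.3% in the upper and 34.3% in the lower group of Ly6e. The median mitochondrial share was 3.60% in the upper and 4.59% in the lower group of Ly6a, and 3.47% and 4.49% for Ly6c1. The part of RNA quality in these groups was not tested.

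Set against the cell cycle directly, 521 cells with a UMI of Mki67 or Top2a were compared with 1371 cells without, at median depths of 11661 and 7780 UMIs. Ly6d was at 2624 and 3362 CPM, a ratio of 0.78 (0.77 to 0.79), and Ly6m at 8.94 and 22.1 CPM, a ratio of 0.40 (0.30 to 0.53). A Ly6m UMI was found in 5.95% and 6.93% of these cells. As 19 cells held 50.9% of all Ly6m UMIs, few cells weigh heavily in its ratio. Ly6a and Ly6c1 had ratios of 0.91 (0.89 to 0.92) and 0.90 (0.88 to 0.92). Ly6e was higher, at 1.06 (1.04 to 1.08), as was Psca, at 1.24 (1.13 to 1.36). Without cluster 6 the ratios were 0.83 for Ly6d, 0.45 for Ly6m, 0.96 for Ly6a, 0.96 for Ly6c1, 1.10 for Ly6e and 1.28 for Psca. Other readouts of Psca did not all go the same way. Without cluster 6, the upper Psca cells had Mki67 at 0.51-fold and Tpx2 at 0.63-fold of the lower, and the proliferating-like cluster 5 had the lowest Psca of the 6 clusters (36.7 CPM).

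Members were then followed over the clusters, which had been formed without any family gene. Cluster 1 (547 cells) was led by Aox3 and Scgb3a1, cluster 2 (455 cells) by Cxcl5 and Cxcl2, and cluster 4 (363 cells) by AC168977.1 and 2610528A11Rik. Besides Ly6m itself, cluster 3 (379 cells) was led by Ndrg1 and Sprr1a. Cluster 5 (86 cells) was led by Aspm and Dlgap5 and had all 7 proliferation markers in over 10% of its cells, 2 of them among its 10 leading genes, so it is named proliferating-like. The leading genes of cluster 6 were Cyba and Reg3g. Cluster 6 also had all 7 proliferation markers in over 10% of its cells, none among its 10 leading genes, and 40 of its 62 cells, or 64.5% (51.3% to 76.3%), had Mki67 or Top2a. The other clusters stay unnamed, as none had more than 1 marker of a class among its 10 leading genes.

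Ly6a, Ly6c1 and Ly6d were highest in cluster 1, Ly6e in cluster 2, Ly6m in cluster 3 and Psca in cluster 6. These leading clusters changed with the clustering. At resolution 1.0, Ly6a, Ly6c1 and Psca (242 CPM) were highest in the same cluster of 229 cells and Ly6d in another of 84. With 1000 variable genes, Ly6a, Ly6c1, Ly6e and Psca (170 CPM) were highest in the same cluster of 425 cells and Ly6d in another of 533. Neither cluster led by Psca held a cell of cluster 6. At resolution 0.3, Ly6a, Ly6c1, Ly6d and Ly6e were highest in the same cluster of 965 cells. Ly6m shared its leading cluster with no other member in any of the 5 other clusterings. Ly6a was at 3950 CPM in cluster 1 (3891 to 4009), 3741 in cluster 2, 2653 in cluster 3, 2281 in cluster 4, 2577 in cluster 5 and 1283 in cluster 6 (1214 to 1355). Ly6c1 ran from 1458 CPM in cluster 1 (1422 to 1494) over 1345, 1257, 1112 and 903 CPM in clusters 2 to 5 to 303 CPM in cluster 6 (270 to 339). Ly6d was at 4071 CPM in cluster 1 (4011 to 4131), 3319 in cluster 2, 2824 in cluster 3, 2812 in cluster 4, 2103 in cluster 5 and 947 in cluster 6 (888 to 1009). Neighbours in these orders did not overlap in their intervals, with exceptions for Ly6d in clusters 3 and 4 and for Ly6a in clusters 3 and 5.

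Ly6e was at 2402 CPM in cluster 2 (2363 to 2441), 2066 in cluster 5, 1944 in cluster 1, 1704 in cluster 3, 1421 in cluster 4 and 1233 in cluster 6 (1165 to 1303). Its intervals in clusters 5 and 1 overlapped. In the proliferating-like cluster Ly6e was thus above its level in the whole library, while Ly6d and Ly6c1 had their lowest values outside cluster 6. In cluster 6, 38.3% of cells had a Ly6c1 UMI at 3000 UMIs (26.1% to 51.8%), 65.0% a Ly6d UMI (51.6% to 76.9%) and 71.7% a Ly6a UMI (58.6% to 82.5%), against at least 81.7%, 94.2% and 97.0% in the other clusters.

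Psca was at 182 CPM in cluster 6 (157 to 210), the cluster of unsettled origin, 128 CPM in cluster 2 (119 to 137), 115 CPM in cluster 3 (106 to 125), the last 2 with overlapping intervals, and between 36.7 and 66.9 CPM in clusters 5, 1 and 4. At 3000 UMIs it was found in 26.7% of cells in cluster 6 (16.1% to 39.7%) and 21.3% in cluster 3 (17.2% to 25.8%). In cluster 2 it was found in 14.4% (11.3% to 18.1%), close to the 14.8% of all cells. For Ly6m, cluster 3 had 48.7 CPM (42.8 to 55.3), cluster 4 had 20.5 (15.4 to 26.8), and the others had at most 5.07 CPM. Its 2 UMIs in cluster 6 gave 1.99 CPM (0.241 to 7.19). Ly6m and Psca thus had different leading clusters, although both were above their library level in cluster 3. Among the 62 cells of cluster 6, rho of Psca was 0.51 with Ly6a, 0.41 with Ly6e, 0.30 with Ly6d, 0.26 with Ly6c1 and 0.01 with Ly6m.

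**Figure D4:**
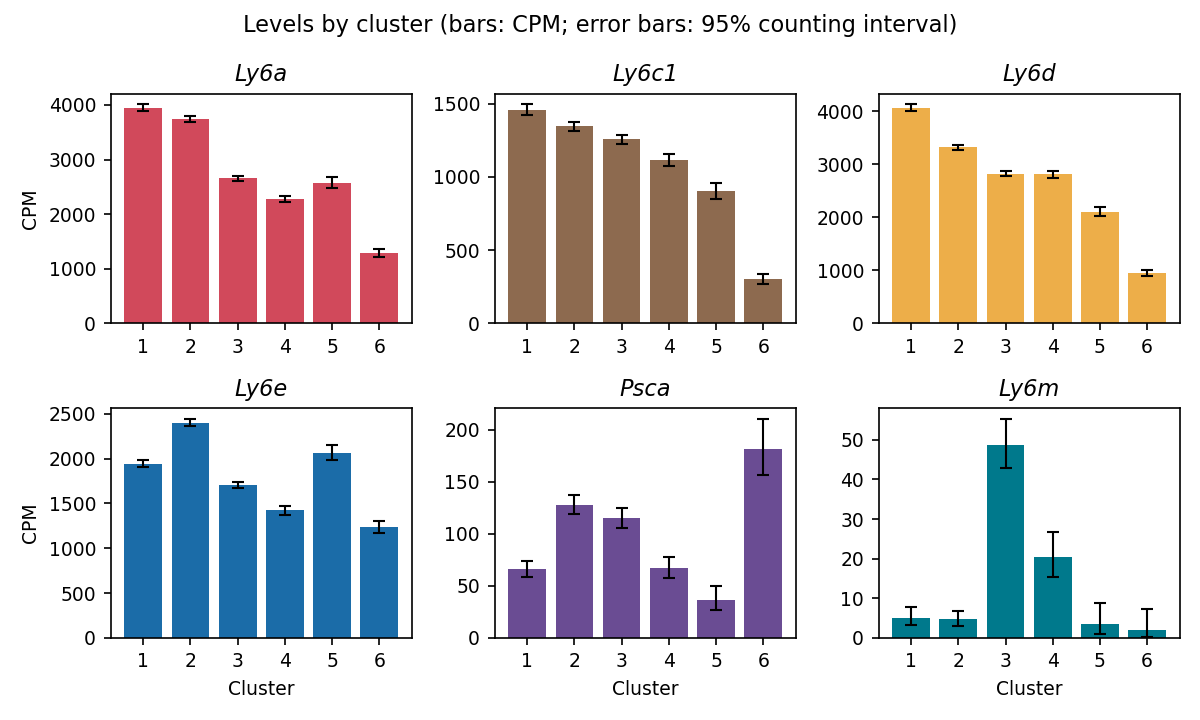
CPM of each gene by cluster, with bars for the value, error bars for the 95% counting interval and each axis starting at 0. Ly6a, Ly6c1, Ly6d and Ly6e are lowest in cluster 6, where Psca is highest (182 CPM), and Ly6m is highest in cluster 3 (48.7 CPM).

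The labels tie the 2 multiplexing tags to no group, so levels were also set side by side by tag. In 1062 cells with CMO301 and 830 cells with CMO302 as the highest tag, the ratio of levels was 1.01 for Ly6e (0.99 to 1.03), 0.998 for Ly6c1 (0.97 to 1.02) and 1.01 for Psca (0.92 to 1.10). It was 0.98 for Ly6a (0.96 to 0.99), 0.98 for Ly6d (0.97 to 0.999) and 0.84 for Ly6m (0.68 to 1.04).

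Some genes of the interferon response were higher in cells with much Ly6a or Ly6c1, and others did not reach 1.5-fold. Of 34 listed genes, 17 had at least 100 UMIs. In the upper group of Ly6a 8 of the 17 were at least 1.5-fold higher, against a background of 7.77% of all genes, and none were lower (background 8.88%). Rsad2, an antiviral enzyme, was 2.98-fold higher (1.94 to 4.71), Ifit1, which binds viral RNA, 3.72-fold (2.25 to 6.44), and Isg15, a ubiquitin-like protein, 2.86-fold (2.13 to 3.87). Ifi27 was 2.14-fold higher (1.96 to 2.35) and Bst2, which tethers budding viruses, 1.66-fold (1.47 to 1.87). Oas1a was counted at 1.53-fold with an interval that included 1 (0.92 to 2.58). Among the genes that did not reach 1.5-fold, Irf1 had a ratio of 1.05 (0.82 to 1.35), Irf9 0.95 (0.73 to 1.248), Ifih1 0.88 (0.50 to 1.52) and Stat2 0.82 (0.47 to 1.42). The median log2 ratio of the 17 was 0.54, against -0.01 over all genes. Without cluster 6, 8 genes were higher and 1 lower, against backgrounds of 10.7% and 8.56%. The median log2 ratio of the list was then 0.35, with no median over all genes beside it.

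For Ly6c1, 8 of 17 were higher (background 4.98%) and none lower (7.67%), with a median log2 ratio of 0.54 against -0.02. The intervals of Stat2 (1.53-fold, 0.86 to 2.75) and Oas1a (1.71-fold, 0.98 to 3.04) included 1. For Ly6d it was 5 (background 3.12%), with Irf7, a regulator of interferon genes, at 2.29-fold (1.54 to 3.45). Ly6e, itself known as interferon-induced, had 4 (background 11.5%), and its median log2 ratio was 0.24, against 0.15 over all genes. For Ly6m it was 3 (background 5.54%) and for Psca 2 (background 2.54%), which were Ifit1, at 3.16-fold (2.27 to 4.42), and Rsad2, at 2.78-fold (1.95 to 3.98). No gene of the list was lower by any of these 4, against backgrounds of 8.81% for Ly6d, 3.19% for Ly6e, 8.90% for Ly6m and 2.24% for Psca. Without cluster 6 the counts of higher genes were 6 for Ly6c1 (background 5.98%), 4 for Ly6d (3.51%), 2 for Ly6e (15.8%), 3 for Ly6m (5.87%) and 2 for Psca (2.50%). The count for Ly6e was then below its background share. The median log2 ratio of the list was 0.48 for Ly6c1 and 0.26 for Ly6e in these cells. Lower genes numbered 1 for Ly6d (background 7.37%) and none for Ly6c1 (6.63%), Ly6e (3.04%), Ly6m (8.43%) and Psca (2.60%).

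**Figure D5:**
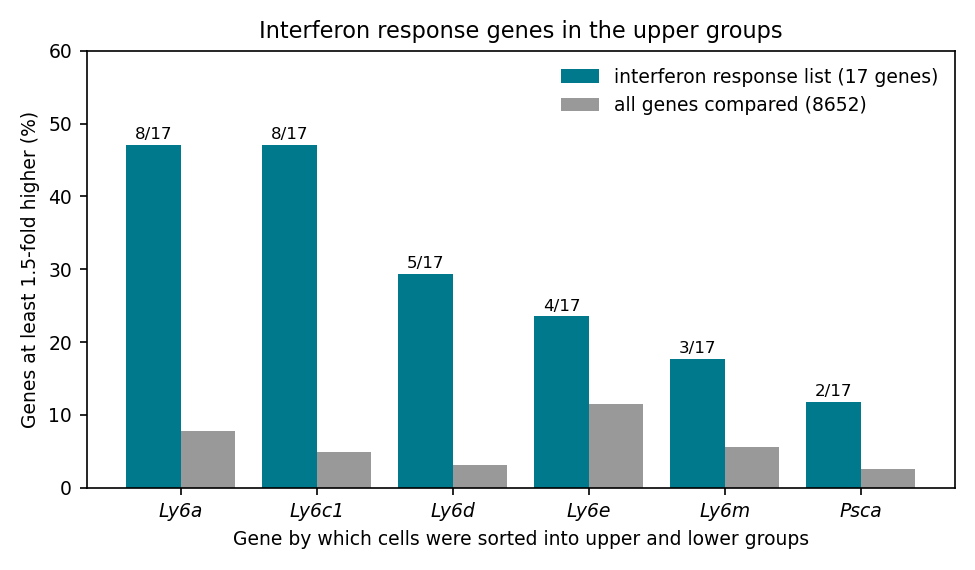
Share of genes at least 1.5-fold higher in the upper than in the lower group of cells, sorted by each member, for 17 interferon response genes and for the 8652 genes compared. The numbers over the bars count the listed genes, 8 of 17 for Ly6a and Ly6c1 and 2 of 17 for Psca.

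Enzymes that build and attach GPI anchors were counted in the same way, and their counts were small, with several near the share over all genes. Of 26 listed genes, 19 had at least 100 UMIs. Sorted by Ly6a, 1 was higher (Pigv, 1.60-fold, 0.98 to 2.63; background 7.77%) and 1 lower (Pign, 0.66-fold, 0.42 to 1.04; background 8.88%). Sorted by Ly6d, Pigv was higher (2.14-fold, 1.31 to 3.60; background 3.12%) and 2 were lower, among them Gpaa1 of the transferase complex (0.65-fold, 0.46 to 0.92; background 8.81%). Sorted by Ly6e, 2 were higher, Pigh and Pigs (background 11.5%), and none lower (background 3.19%). Sorted by Ly6m, 1 was higher (background 5.54%) and 2 lower (background 8.90%). Sorted by Psca, none passed in either direction (backgrounds 2.54% and 2.24%), nor did any by Ly6c1 (4.98% and 7.67%). Without cluster 6, sorting by Ly6e gave 4 higher genes (background 15.8%) and none lower (3.04%), and sorting by Ly6a gave 2 (10.7%) and none (8.56%). Sorting by Ly6c1 then gave 1 higher (5.98%) and 1 lower (6.63%), by Ly6m 1 (5.87%) and 1 (8.43%), by Ly6d 1 (3.51%) and 2 (7.37%), and by Psca none (2.50% and 2.60%).

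Since Ly6d is known from stratified epithelium, squamous markers were counted as well. Of 8, Krt5, Krt6a and Sprr3 had no UMI, and Krt13, Krt14, Trp63 and Dsg3 had 2 to 4 UMIs. Krt4 stood out, at 464 CPM in 80.1% of cells. It was 2.41-fold higher in the upper group of Ly6a (2.26 to 2.57), 2.21-fold in that of Ly6e (2.08 to 2.36), 2.13-fold in that of Ly6c1 (2.0 to 2.26) and 1.60-fold in that of Ly6d (1.51 to 1.71). By Psca the ratio was 1.24 (1.18 to 1.30), and by Ly6m 0.88 (0.81 to 0.95). Without cluster 6 the ratios were 2.24 for Ly6a, 2.10 for Ly6e, 2.08 for Ly6c1, 1.51 for Ly6d, 1.28 for Psca and 0.86 for Ly6m.

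Most of the rest of the family was scarce, with Lynx1 above Ly6m in level, and Lynx1, Plaur and Lypd6b above it in share of cells. Of 37 other listed Ly6 and related genes, 13 had no UMI, 13 had fewer than 20 UMIs and 11 had at least 20. The 6 members held 99.0% of the family's UMIs and 0.952% of all gene UMIs. Lynx1, a modulator of nicotinic receptors, was at 42.0 CPM (39.2 to 44.9), and 32.1% of cells had a UMI, against 29.4% for Psca. Plaur, the urokinase receptor, was at 16.3 CPM (14.6 to 18.2) in 14.1% of cells, and Lypd6b at 12.0 CPM (10.6 to 13.6) in 11.1%. Ly6m was found in 6.66% of cells, and its level had an interval that overlapped that of Plaur. Ly6g6d was at 6.81 CPM, Lypd2 at 3.38, Slurp2 at 3.28, Ly6g6c at 2.39, Ly6g at 2.29, Slurp1 at 1.24, Lypd8 at 1.19 and Lypd5 at 1.04 CPM. Ly6i, which lies between Ly6e and Ly6a on the chromosome, had 9 UMIs, and Lypd2, Slurp1, Slurp2 and Lynx1 lie between Psca and Ly6d.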

How the data were processed

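The matrix the authors deposited holds raw counts, whole numbers of UMIs per feature and barcode. It is the output of Cell Ranger 6.1.2, as its header records. The genome build was GRCm38 (mm10), per the submitters' processing notes. The annotation counted against is not given in the sources used here. The 12 multiplexing tags were kept out of gene totals.

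The members and gene lists were chosen with earlier results of these data known. From the counts, CPM carry exact Poisson intervals, shares Clopper-Pearson intervals and ratios exact conditional binomial intervals (scipy 1.17.1). Clusters came from scanpy 1.11.5 (2000 variable genes without Ly6 family, cell cycle, sex-linked and mitochondrial genes, 30 components, 15 neighbours, resolution 0.6). Scrublet called 12 doublets (0.634%), which were kept. Ribosomal, mitochondrial and all other genes entered the likeness ranking if a UMI was found in 10% of cells.

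Named genes were the members, family genes with 20 UMIs, for each member the 4 genes with the highest and 2 with the lowest rho, for each cluster its leading genes, and listed genes past 1.5-fold. Ly6c2, Ly6i, Irf1 and Irf9 were named outside this rule, after their values were seen, as were cell type markers given to check labels and genes nearest to a member without cluster 6. Steps were tested on simulated data. Alternatives were cell filters, doublets, tags, cluster 6, fold, the share of cells in each group, depth bins and clustering settings.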

Additional observations from a re-analysis of the deposited data

How the results depend on the processing

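No called value changed direction in the alternatives run. The rho of Ly6e with Ly6m, near 0, ran from -0.04 to 0.02. Among the levels, pair counts and cluster ratios recomputed, 64 values lay within the 95% counting interval of the main value (for pair counts, within 1.5 times of it) and 37 did not. Among the pair ratios and values of rho, 295 lay within the 95% interval of the main value and 140 did not. The cause was not tested beyond what an alternative leaves out. Without cluster 6, Ly6e was at 1961, Ly6a at 3234, Ly6d at 3217 and Ly6c1 at 1288 CPM. As means over cells, Ly6e was at 1879, Ly6d at 3252, Ly6m at 21.4, Psca at 84.1 and Ly6c1 at 1260 CPM. Without the 1% of cells with the most UMIs of each member (chosen after seeing the data), levels were 1879 for Ly6e, 3039 for Ly6a, 3012 for Ly6d, 8.70 for Ly6m, 67.7 for Psca and 1195 CPM for Ly6c1. By tag, Ly6a was at 3104 (CMO301) and 3176 CPM (CMO302), and Ly6d at 3133 CPM (CMO302).

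The count of shared pairs was 10 at the lower fold tried, 1 at a fold of 2 (Ly6a with Ly6c1) and 3 with 50% of cells per group, and 5 in each of the 9 other alternatives. Of those 9, 7 kept all 5 pairs. The Ly6m groups are cells with and without a UMI, so ratios between them could not change with the share of cells per group or the depth bins. Without cluster 6, Psca with Ly6c1 replaced Ly6d with Ly6c1, and in cells tagged CMO302, Ly6e with Ly6c1 replaced Ly6m with Psca. No pair was opposed in any alternative. Leaving out cells with Mki67 or Top2a kept all 5; this and the shares at 3000 UMIs without cluster 6 were also chosen after seeing the data. With 50% of cells per group, the calls of Ly6a with Ly6e and of Ly6d with Ly6c1 ended. Ly6e by Ly6a was then 1.38 and Ly6d by Ly6c1 1.41. At this share of cells Ly6c1 by Ly6a was 2.54, Ly6a by Ly6c1 2.10, Psca by Ly6d 2.07 and Psca by Ly6e 1.86.

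The ratio between the highest and lowest cluster depended on how finely cells were divided. At resolution 0.3 it was 1.39 for Ly6e, 1.93 for Ly6a, 2.33 for Ly6d, 1.05 for Psca and 2.21 for Ly6c1. At resolution 1.0 it was 2.09, 3.94, 4.99, 13.6 and 6.99 in the same order, and Ly6m had a cluster at 0 and so no ratio. For Ly6m the ratio was 24.5, with a wide interval (6.71 to 203), and it was 14.1 at resolution 0.3, 15.5 with 1000 and 65.6 with 3000 variable genes and 26.6 with seed 1. For Psca it was 4.96 (3.54 to 7.09), and 6.95 with 1000, 6.96 with 3000 variable genes and 5.22 with seed 1. With 1000 variable genes it was 1.66 for Ly6e, 2.30 for Ly6a, 2.37 for Ly6d and 2.90 for Ly6c1. For Ly6a it was 3.33 with 3000 variable genes and 3.27 with seed 1. Depth limits Ly6m most, with 352 UMIs in all. No paired analysis was possible because only 1 library was analysed.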
